A study of Mus musculus with 3 samples.

Results

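Genes of the translation initiation and elongation factors were followed in LKS cells of mouse bone marrow, which lack lineage markers, carry Kit and Sca1, and include the blood stem cells and their early progeny. Members were all genes whose symbol begins with Eif1 to Eif6 or with Eef1 or Eef2. The eIF2 kinases (Eif2ak), Eif1ax, Eif2s3x, Eif2s3y and names containing -ps were left out. This gave 61 of the 24982 gene symbols counted. RNA sequencing was done on LKS cells sorted from recipient mice lacking CD73, with 1 library (the KO library), and from wild-type (WT) recipients, with 2 libraries. The enzyme CD73, the product of Nt5e, makes adenosine from AMP outside the cell. The sample titles call the cells LKS, while the sample descriptions call them LLP cells. The labels do not say if the cells came from a donor or from the recipient, so they may or may not carry the deletion themselves. Nt5e had 0 counts in the KO library and 0 in both WT libraries, so its count does not check the labels. The sources used here do not give strain, age, sex, conditioning, the number of animals pooled or whether each WT library is from its own animal. Any p-value therefore reflects only how these samples differ, and that spread may be technical, and the test takes the spread of the KO library to be that of the WT pair.

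Translation starts when the small ribosomal subunit, carrying the initiator tRNA brought by eIF2, is recruited to the capped end of an mRNA and scans to a start codon. The cap is bound by eIF4E, which joins the scaffold eIF4G and the helicase eIF4A in the complex eIF4F, while eIF3 ties this complex to the ribosome. The exchange factor eIF2B recharges eIF2 with GTP and is the step that stress kinases block. During elongation eEF1A delivers aminoacyl-tRNA, the eEF1B subunits recharge eEF1A, and eEF2 moves the ribosome along the mRNA. Blood stem cells are known for a low rate of protein synthesis compared with their progeny.

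The libraries held 264704 gene-level counts in KO, 361638 in WT replicate 1 and 324954 in WT replicate 2, and 8474, 9501 and 9519 genes with a count in that order. A gene at 0 could have had up to 3 counts, or 11.3 CPM in KO and 8.30 and 9.23 CPM in WT, where CPM is the gene's count per 1000000 gene-level counts of its library. Of the genes that define the gate, Kit had 555 CPM in KO, against 517 and 637 CPM in WT. Ly6a, the gene of Sca1, had 136 CPM in KO, against 166 and 58.5 CPM in WT. Cd34, a marker of progenitor cells, had 416 CPM in KO, against 636 and 597 CPM in WT, and the pan-leukocyte gene Ptprc had 159 CPM in KO, against 401 and 415 CPM in WT, so KO lay below both WT libraries for these. The 4 genes summed to 1266 CPM in KO, against 1720 and 1708 CPM in WT. Of 16 markers of mature blood lineages, 8 had 0 counts in every library, among them Cd3e, Cd79a, Ms4a1, Ly6g and Klrb1c. Their summed level was 646 CPM in KO, against 675 and 477 CPM in WT. The globin Hbb-bt had 431 CPM in KO, against 418 and 129 CPM in WT, while the globin Hba-a1 was among the 8 markers at 0 in every library. The other markers did not run together: the myeloid integrin Itgam had 132 CPM in KO, against 11.1 and 55.4 CPM in WT, while the neutrophil granule genes Ngp and Ltf had 26.4 and 15.1 CPM in KO, against 71.9 and 105 CPM in WT replicate 1 and 166 and 49.2 CPM in WT replicate 2. Camp, also a neutrophil granule gene, had 41.6 CPM in KO, between the WT values of 52.5 and 15.4 CPM. The B-lineage gene Cd79b had 0 counts in KO, against 5 and 17 counts in WT. The part of other cells in the values below was not tested. In bulk samples fewer cells of a type and less RNA per cell cannot be told apart.

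As a whole the factor genes took up like shares of the counted RNA. They held 2.17% of all gene-level counts in KO, against 2.14% and 2.39% in WT replicates 1 and 2. Of the 61 genes, 52 passed the filter on low counts and were tested, and 35 reached 50 counts in a library. At an adjusted p of 0.05, 0 of 52 were higher and 0 were lower in KO (edgeR quasi-likelihood test, Benjamini-Hochberg adjustment over all genes), beside 0.1% of all 7984 tested genes higher and 0% lower. The smallest adjusted p of a factor gene was 0.258. At an unadjusted p under 0.05, 2 were higher and 5 lower, against 3.53% of all tested genes higher and 6.51% lower. DESeq2 also called 0 factor genes. It put 9 of the 52 at an unadjusted p under 0.05, beside 1055 of all 7984 tested genes. A log2 fold change above 0 was found for 25 of the 52 and below 0 for 27. Their median was -0.11 and that over all tested genes -0.31, and neither changed to 2 decimals when genes at 0 were put at their bound.

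By size alone, 2 of the 35 genes that reached 50 counts in a library were at least 2-fold above both WT libraries in KO, and 7 were at least 2-fold below both. Over all 2831 genes that reached 50 counts in a library, 9.25% were higher by this rule and 17.9% lower, so the lower share of 20% among factor genes lay near the background. Of the 7 lower genes, Eif2b5, Eif1b, Eif3m, Eef2k, Eif4a3 and Eif1a had 0, 2, 3, 5, 8 and 13 counts in KO. They reached 50 counts through WT libraries alone, so their direction is a description. Eif4a2 had 56 counts in KO. KO lay above both WT libraries for 13 of the 35 genes (background 29.1%) and below both for 14 (background 39.5%). The WT libraries themselves were at least 2-fold apart for 14 of the 35, or 40%, against 44.6% of all such genes.

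**Figure D1:**
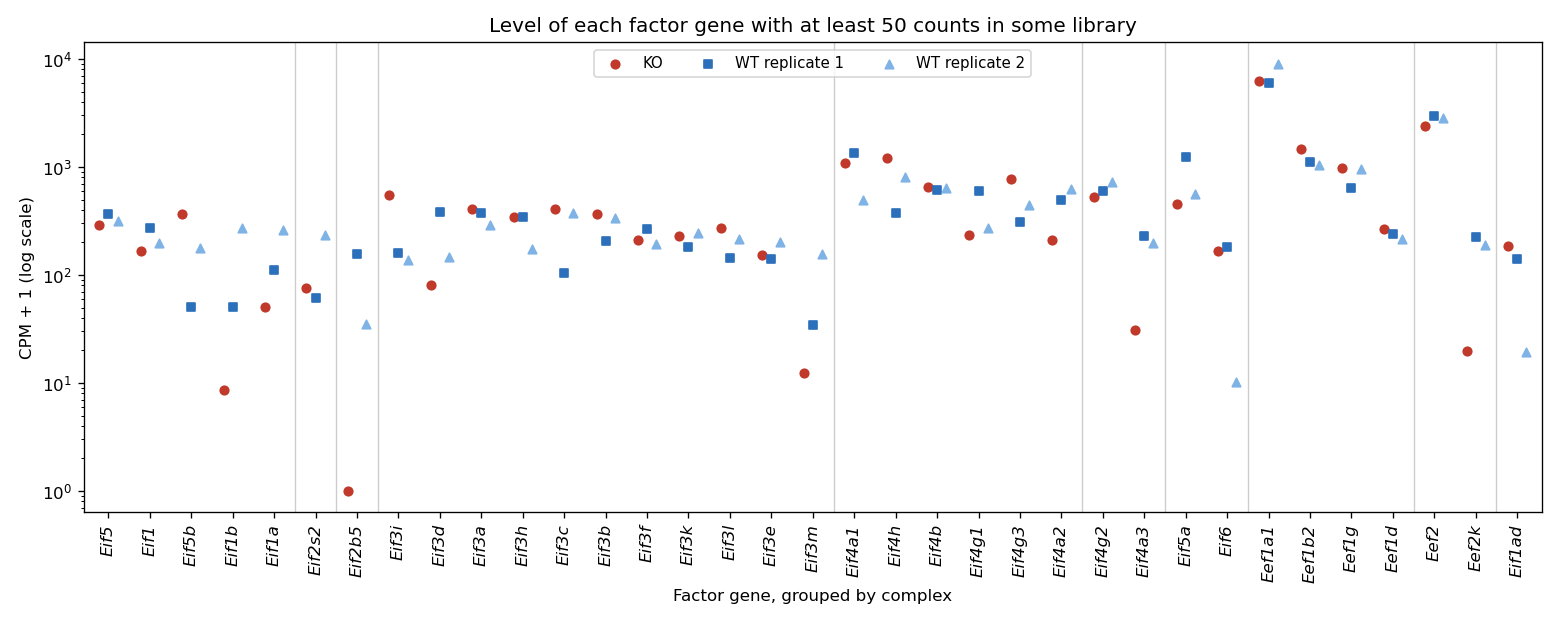
Level of the 35 factor genes that reached 50 counts in a library, as CPM + 1 on a log axis, with 1 point per library (KO, WT replicate 1, WT replicate 2) and grey lines between complexes. Abundant genes such as Eef1a1 and Eef2 sit close together in all 3 libraries, while Eif2b5, Eif1b, Eif3m, Eef2k and Eif4a3 have their KO point well below both WT points. Eif2b5, Eif1b, Eif3m, Eef2k and Eif4a3 reached 50 counts through WT libraries alone.

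The E-box hexamer CACGTG, a sequence bound by Myc and its relatives, lies near the annotated start of 14 of the 46 factor genes for which RefSeq promoters were found (build GRCm38.p6, 250 bases before to 50 after the start, 300 in all). CACGTG reads the same on both strands. The 14 genes were 30.4% of the 46, against 8.09% of all 27025 genes with such a window and 9.84% of cytosolic ribosomal protein genes. Eef1akmt4 and the readthrough gene Eef1akmt4-ece2 share 1 site and were both counted. Of the factor genes that reached 50 counts in a library 10 of 27, or 37.0%, held it, against 12.7% of all such genes. A gene counted when any of its starts held the motif, and starts per gene averaged 1.30 for factor genes and 1.22 for all genes. The stretches below show the hexamer in capitals, 5′ to 3′ on the gene's own strand, for members of elongation, start codon selection, eIF4F and eIF3 whose values are given further on.
Eef2 (chr10:81176573-81176608, plus strand, position -43 from the annotated start): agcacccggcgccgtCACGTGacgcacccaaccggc
Eif1b (chr9:120492567-120492602, plus strand, position -24): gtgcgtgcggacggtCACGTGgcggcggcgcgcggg
Eif4a1 (chr11:69672592-69672627, minus strand, position -189): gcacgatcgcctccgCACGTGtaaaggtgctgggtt
Eif4g1 (chr16:20672658-20672693, plus strand, position -54): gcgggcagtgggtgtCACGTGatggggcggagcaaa
Eif4h (chr5:134639485-134639520, minus strand, position -96): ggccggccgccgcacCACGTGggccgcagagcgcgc
Eif3f (chr7:108934332-108934367, plus strand, position -68): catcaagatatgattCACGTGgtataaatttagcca
Eif3k (chr7:28981912-28981947, minus strand, position -44): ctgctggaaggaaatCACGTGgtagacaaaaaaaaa
Other patterns were searched in the same windows. CGGAAG, on either strand, was present in 58.7% of factor genes, 65.6% of ribosomal protein genes and 18.8% of all genes, and, among genes that reached 50 counts in a library, in 55.6% of factor genes and 40.6% of all genes. TATAAA, on either strand, was present in 8.70% of factor genes and 15.7% of all genes, but in 11.1% of factor genes and 7.94% of all genes among those that reached 50 counts. A run of at least 5 pyrimidines that begins with C after a purine, within 5 bases of the annotated start, was present in 15.2% of factor genes, 29.5% of ribosomal protein genes and 14.5% of all genes. Among genes that reached 50 counts it was present in 22.2% of factor genes and 17.3% of all genes. These matches describe letters and not bound sites. Of 12 tested factor genes with CACGTG, 6 had a log2 fold change in KO over WT above 0 and 6 below, with a median of 0.03. Of 28 tested without it, 13 were above 0 and 15 below, with a median of -0.20.

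The genes of start codon selection held both high and low members. Eif1, which keeps the scanning ribosome open until a start codon is found, had 166 CPM in KO, against 271 and 197 CPM in WT. Eif5, which triggers GTP hydrolysis by eIF2 at the start codon, had 291 CPM in KO, against 365 and 317 CPM in WT. KO lay below both WT libraries for each of these, by less than 2-fold. Eif5b, the GTPase that joins the large ribosomal subunit, had 96 counts in KO, against 18 and 58 counts in WT (363 CPM, against 49.8 and 178 CPM). For Eif5b the log2 fold change was 1.71 (SE 0.93, edgeR adjusted p 0.546), and KO was 7.29-fold above WT replicate 1 and 2.03-fold above WT replicate 2. Eif5b (chromosome 1, 37998010 to 38055579, mm10) overlaps Rev1 on the opposite strand, which had 12 counts in KO and 0 and 3 in WT, and whether the counting used strand is not known.

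Eif1b, a close relative of Eif1, had 2 counts in KO, against 18 and 88 counts in WT (7.56 CPM, against 49.8 and 271 CPM). Its log2 fold change was -4.29 (SE 1.68, edgeR adjusted p 0.280, unadjusted 0.0106). The KO count was below both WT libraries, which differed from each other 5.44-fold. Eif1a, an eIF1A gene that acts with eIF1 in scanning, had 13 counts in KO, against 40 and 85 counts in WT (49.1 CPM, against 111 and 262 CPM; log2 fold change -1.87, SE 1.24, edgeR adjusted p 0.678). Per transcript length, Eif1b made up 5.88% of the summed FPKM of Eif1 and Eif1b in KO, against 20.2% and 65.4% in WT replicates 1 and 2. KO had the lowest share, and the WT libraries differed widely. Eif1b lies on chromosome 9 at 120492606 to 120495327. The 5 genes together had 876 CPM in KO, against 846 and 1225 CPM in WT.

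Of eIF2, the complex that brings the initiator tRNA, the alpha subunit Eif2s1 and the beta subunit Eif2s2 are described, since the gamma subunit genes are left out by the rule. Eif2s1, whose product is the target of the stress kinases, had 11 counts in KO, against 18 and 8 counts in WT. Eif2s2 had 20 counts in KO, against 22 and 76 counts in WT. Neither placed KO outside the WT pair in CPM. Eif2a and Eif2d, which can deliver tRNA to the ribosome without eIF2, had 17 and 10 counts in KO, against 26 and 1 counts in WT replicate 1 and 14 and 4 counts in WT replicate 2. Eif2d is overlapped on the opposite strand by Rassf5 (9 counts in KO, 39 and 39 in WT) and Eif2a by Serp1 (11 counts in KO, 37 and 53 in WT).

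The 5 subunit genes of eIF2B, the exchange factor of eIF2, were the complex with the lowest KO level relative to WT. Their summed level was 75.6 CPM in KO, against 351 and 280 CPM in WT (316 ± 50.3 CPM, SD, n = 2), which is 20 counts in KO against 127 and 91 counts. The log2 ratio of the sums was -2.06. Eif2b5, which encodes the catalytic epsilon subunit, had 0 counts in KO, against 56 and 11 counts in WT (155 and 33.9 CPM). Against a floor of 3 counts in the KO library it was at least 8.33-fold lower in KO than the WT mean, at least 13.7-fold lower than WT replicate 1 and at least 2.99-fold lower than WT replicate 2 (edgeR adjusted p 0.258, unadjusted 0.0080). Eif2b4, the delta subunit, had 6 counts in KO, against 26 and 32 counts in WT, with KO below both (log2 fold change -1.85, SE 1.77, edgeR adjusted p 0.806). Eif2b2, the beta subunit, had 2 counts in KO, against 20 and 4 in WT. Eif2b3, the gamma subunit, had 1 count in KO, against 15 and 1 in WT, and Eif2b1, the alpha subunit, 11 counts in KO, against 10 and 43 in WT. For these the WT libraries were over 4-fold apart in CPM, and for Eif2b3 and Eif2b1 KO lay between them. All 5 log2 fold changes were below 0, with a median of -2.08, against 56.9% of all tested genes below 0, and no subunit passed the test. Some of these genes passed the filter on low counts through their WT libraries alone, so their direction is a description. Eif2b5 lies on chromosome 16 at 20498795 to 20509325. Eif2b4 is overlapped on the opposite strand by Snx17 (9 counts in KO, 50 and 18 in WT).

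**Figure D2:**
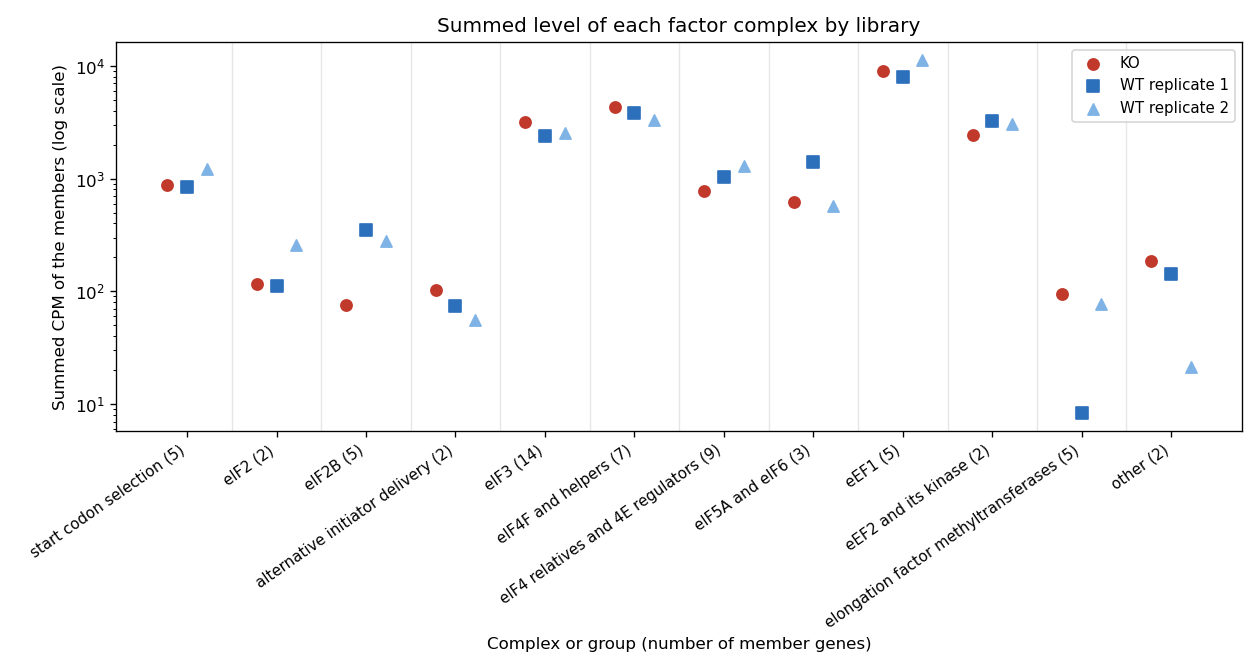
Summed CPM of each factor complex or functional group on a log axis, with 1 point per library and the number of member genes in parentheses. KO lies below both WT libraries for eIF2B, the eIF4 relatives and eIF4E regulators, and eEF2 with its kinase. It lies above both for eIF3, eIF4F with its helpers, alternative initiator delivery, the methyltransferases and the group named other.

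The eIF3 genes were slightly higher in KO as a sum, at 3162 CPM, against 2400 and 2560 CPM in WT (2480 ± 113 CPM, SD, n = 2), a ratio of 1.27. Of 14 genes, 12 were tested, 8 with a log2 fold change above 0 and 4 below, with a median of 0.39. Of all tested genes 56.9% were below 0, with a median of -0.31. The largest part of the difference in the sum came from Eif3i, a WD-repeat subunit. This gene had 145 counts in KO, against 57 and 44 counts in WT (548 CPM, against 158 and 135 CPM). Its log2 fold change was 1.94 (SE 0.79, edgeR adjusted p 0.311, unadjusted 0.0137), and KO stood 3.48-fold and 4.05-fold above WT libraries that lay close together. Eif3i lies on chromosome 4 at 129591974 to 129600648.

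The core subunit genes of eIF3 lay close to the WT range. Eif3a, the scaffold subunit, had 408 CPM in KO, against 373 and 292 CPM in WT. Eif3b, which binds the scaffold and eIF3i, had 366 CPM in KO, against 205 and 335 CPM in WT. Eif3c had 408 CPM in KO, against 102 and 372 CPM in WT. KO lay above both WT libraries for all of these, 1.09-fold above the nearer one for Eif3a and Eif3b and 1.10-fold for Eif3c. Eif3g, which joins the subunits b and i, had 140 CPM in KO, against 77.4 and 98.5 CPM in WT. Eif3l had 272 CPM in KO, against 144 and 212 CPM in WT. Eif3e, Eif3f, Eif3h and Eif3k had 151, 212, 340 and 227 CPM in KO. They had 141, 265, 340 and 183 CPM in WT replicate 1 and 203, 194, 172 and 243 CPM in WT replicate 2, with KO between the WT libraries or level with one of them.

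A pair of eIF3 genes ran the other way. Eif3d, the subunit that can itself bind the cap of some mRNAs, had 21 counts in KO, against 137 and 47 counts in WT (79.3 CPM, against 379 and 145 CPM; log2 fold change -1.68, SE 1.05, edgeR adjusted p 0.639). Eif3m had 3 counts in KO, against 12 and 51 counts in WT (11.3 CPM, against 33.2 and 157 CPM; log2 fold change -2.98, SE 1.90, edgeR adjusted p 0.649). The KO value of each lay below both WT libraries. Of the sequence of Eif3d, 37.2% of all 50-base stretches also occur in the gene Gm17638, and 18.4% of those of Eif3m occur in other genes, so their counts are uncertain. The share in other genes was 20.3% for Eif3h and 19.2% for Eif1, which makes their counts uncertain too. Eif3j1 and Eif3j2 had 0 counts in every library, and 90.8% of the 50-base stretches of Eif3j2 are shared with Eif3j1. Per transcript length, in FPKM, the 12 detected subunit genes reached up to 501 in KO (Eif3i), against 278 in WT replicate 1 (Eif3h) and 289 in WT replicate 2 (Eif3k). The lowest stood at 29.0 FPKM in WT replicate 1 and 56.9 FPKM in WT replicate 2, and the KO value of Eif3m lay below both. Eif3m was the lowest in KO and in WT replicate 1, and Eif3a in WT replicate 2. The median was 137 FPKM in KO, against 84.2 and 126 FPKM in WT.

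**Figure D3:**
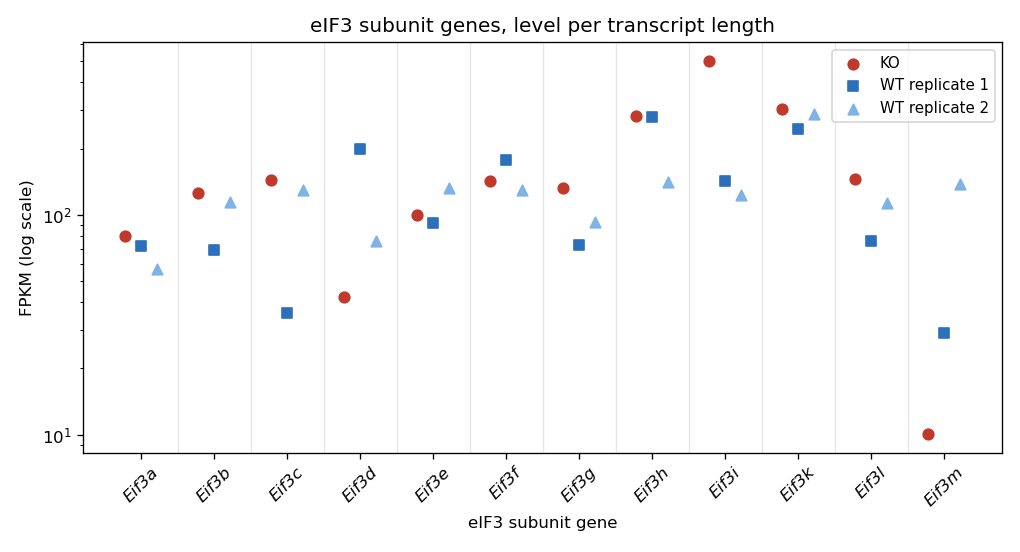
Level of the 12 detected eIF3 subunit genes in FPKM, which allows for transcript length, on a log axis with 1 point per library. Eif3i has its KO point above both WT points, and Eif3d and Eif3m have theirs below, while the WT points of Eif3c, Eif3d and Eif3m are also well apart.

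The cap-binding complex eIF4F and its helpers summed to 4322 CPM in KO, against 3810 and 3339 CPM in WT. Eif4e, the cap-binding protein, had 40 counts in KO, against 25 and 18 counts in WT (151 CPM, against 69.1 and 55.4 CPM; log2 fold change 1.31, SE 1.30, edgeR adjusted p 0.817). Eif4h, which stimulates the helicase, had 1205 CPM in KO, against 371 and 809 CPM in WT (log2 fold change 1.07, SE 0.48, edgeR adjusted p 0.391, unadjusted 0.0249). KO was 3.25-fold above WT replicate 1 and 1.49-fold above WT replicate 2. Eif4b, a further cofactor of the helicase, was nearly level, with 650 CPM in KO, against 617 and 640 CPM in WT.

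The paralogs of the helicase and of the scaffold differed in where KO stood. Eif4a1 had 1096 CPM in KO, between the WT values of 1349 and 489 CPM. Eif4a2 had 56 counts in KO, against 180 and 204 counts in WT (212 CPM, against 498 and 628 CPM; log2 fold change -1.37, SE 0.71, edgeR adjusted p 0.508). KO was below both WT libraries, which were 1.26-fold apart. Eif4a2 made up 10.9% of the summed FPKM of both helicase genes in KO, against 18.6% and 44.2% in WT. Of the scaffolds, Eif4g3 had 774 CPM in KO, against 310 and 443 CPM in WT (log2 fold change 1.08, SE 0.60, edgeR adjusted p 0.559), and Eif4g1 had 234 CPM in KO, against 597 and 274 CPM in WT (log2 fold change -0.86, SE 0.75, edgeR adjusted p 0.789). Eif4g3 made up 74.1% of the summed FPKM of both scaffold genes in KO, against 33.4% and 59.0% in WT. In each pair the WT libraries were farther from each other than KO was from the nearer of them. Eif4a1 shares 28.4% of its 50-base stretches with other genes, mostly the pseudogene Eif4a-ps4, and Eif4a2 13.6%.

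**Figure D4:**
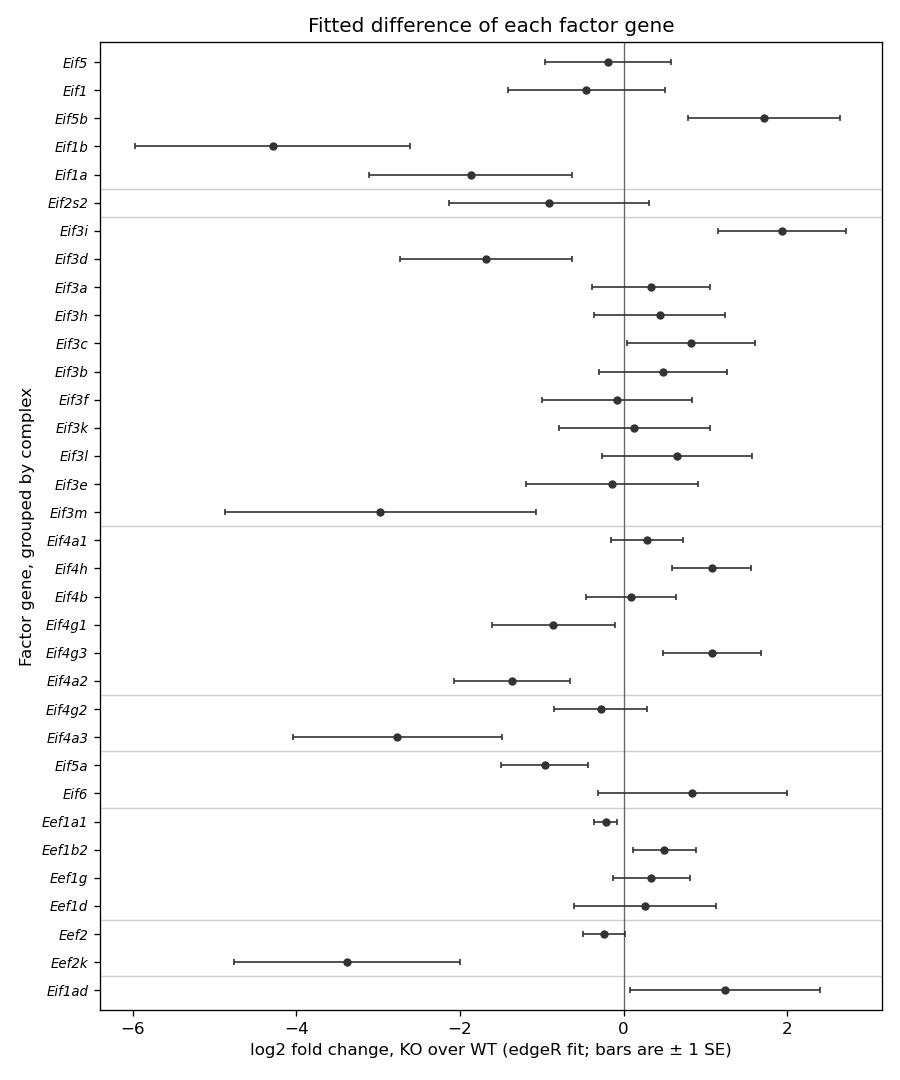
Log2 fold change in KO over WT from the edgeR fit, with bars of 1 SE, for the 34 factor genes that reached 50 counts in a library and a count in every library. Eef1a1 and Eef2 have short bars near 0, Eif4h and Eif4g3 lie near 1, and the values farthest from 0, those of Eif1b, Eef2k, Eif3m and Eif4a3, have bars of over 1 log2 unit; Eif2b5, with 0 counts in KO, is not drawn.

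Among relatives and regulators of the eIF4 factors KO was lower in sum, at 782 CPM, against 1040 and 1283 CPM in WT. Eif4a3, a helicase of the exon junction complex that marks spliced mRNA, had 8 counts in KO, against 83 and 64 counts in WT (30.2 CPM, against 230 and 197 CPM). Its log2 fold change was -2.76 (SE 1.28, edgeR adjusted p 0.425, unadjusted 0.0311), and the WT libraries were close together. Eif4a3 lies on chromosome 11 at 119288363 to 119300043. Of its 50-base stretches 16.5% occur in other genes, so its count is uncertain. Eif4enif1, which carries eIF4E into the nucleus and represses translation, had 1 count in KO, against 37 and 33 counts in WT (log2 fold change -4.58, SE 2.14, edgeR adjusted p 0.431, unadjusted 0.0321). It is overlapped on the opposite strand by Drg1, which had 1 count in KO, against 121 and 9 counts in WT, and reads of such a pair cannot be told apart without strand. Eif4g2, a scaffold that lacks the cap-binding part, was abundant and had 529 CPM in KO, against 595 and 726 CPM in WT.

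The genes of the eIF4E-binding proteins, which hold eIF4E away from the scaffold until mTORC1 phosphorylates them, had few counts. Eif4ebp1 had 27 counts in KO, against 3 and 19 counts in WT. Eif4ebp2 had 14 counts in KO, against 7 and 15 counts in WT, and Eif4ebp3 had 0 counts in KO, against 1 and 14 counts in WT. The WT libraries differed over 2-fold for each of them in CPM. Of the eIF4E homologs, Eif4e2 had 10 counts in KO, against 21 and 11 counts in WT, Eif4e3 had 7 counts in KO, against 9 and 25 in WT, and Eif4e1b had 0 counts in every library.

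Eif5a, whose product carries the modified residue hypusine and helps the ribosome past difficult stretches, had 119 counts in KO, against 446 and 184 counts in WT (450 CPM, against 1233 and 566 CPM). The log2 fold change of Eif5a was -0.96 (SE 0.53, edgeR adjusted p 0.566), with KO below both WT libraries, which were 2.18-fold apart. Its paralog Eif5a2 had 0 counts in every library. Eif6, which keeps the large ribosomal subunit from joining too early, had 166 CPM in KO, against 180 and 9.23 CPM in WT, so that WT replicate 2 alone stood apart. Eif1ad, named for a domain it shares with eIF1A, had 185 CPM in KO, against 141 and 18.5 CPM in WT. It is overlapped on the opposite strand by Banf1, with 52 counts in KO, against 85 and 37 counts in WT.

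Eef1a1 had the highest level per transcript length of all factor genes in every library, and the levels of eEF1A and eEF2 were close in KO and WT. Eef1a1, which delivers aminoacyl-tRNA, had 1656 counts in KO, against 2158 and 2935 counts in WT (6256 CPM, against 5967 and 9032 CPM). The log2 fold change of Eef1a1 was -0.22 (SE 0.14, edgeR adjusted p 0.666), and KO lay between the WT libraries. Eef2 had 637 counts in KO, against 1083 and 925 counts in WT (2406 CPM, against 2995 and 2847 CPM; log2 fold change -0.24, SE 0.25, edgeR adjusted p 0.828). Together these genes made up 39.8% of all factor gene counts in KO, against 41.9% and 49.6% in WT. Per transcript length Eef1a1 stood 4.50-fold above Eef2 in KO, against 3.45-fold and 5.50-fold in WT. Other genes, most of all Gm13456, hold 40.4% of the 50-base stretches of Eef1a1, so its count is uncertain. Eef1a2, the form of muscle and neurons, had 1 count in KO and 0 in both WT libraries.

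The genes of the exchange complex eEF1B lay slightly above both WT libraries in KO. Eef1b2, the catalytic subunit beta, had 1481 CPM in KO, against 1123 and 1034 CPM in WT (log2 fold change 0.50, SE 0.39, edgeR adjusted p 0.760). Eef1g, the structural gamma subunit, had 982 CPM in KO, against 639 and 960 CPM in WT. Eef1d, the second exchange subunit, had 264 CPM in KO, against 241 and 212 CPM in WT. In FPKM the genes Eef1b2, Eef1g and Eef1d stood at 777, 636 and 157 in KO. They stood at 584, 410 and 148 FPKM in WT replicate 1 and at 539, 618 and 133 FPKM in WT replicate 2, so Eef1d was the lowest in every library. Other genes, most of all Gm4366, hold 44.2% of the 50-base stretches of Eef1g. Eef1b2 is overlapped on the opposite strand by Ndufs1, with 8 counts in KO, against 52 and 14 in WT.

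Eef2k, the kinase that inactivates eEF2, differed more than its substrate. It had 5 counts in KO, against 81 and 61 counts in WT (18.9 CPM, against 224 and 188 CPM; 206 ± 25.6 CPM in WT, SD, n = 2). For Eef2k the log2 fold change was -3.38 (SE 1.38, edgeR adjusted p 0.316, unadjusted 0.0142). The WT libraries were close, 1.19-fold apart, and KO lay 10.9-fold below their mean. All 3 deposited transcripts of Eef2k had 5 counts in KO, against 75 to 81 counts in WT replicate 1 and 61 counts in WT replicate 2. Transcripts of 1 gene can share reads, so the likeness of these rows is no separate support. Eef2k lies on chromosome 7 at 120842642 to 120907219. The methyltransferases of elongation factors were near the limit of detection. Eef1akmt4 had 18 counts in KO, against 0 and 10 counts in WT, Eef2kmt had 5 counts in KO, against 3 and 12 counts in WT, and the remaining ones had at most 2 counts in any library. Eef1e1, a component of the tRNA synthetase complex despite its symbol, had 0 counts in KO, against 0 and 1 count in WT, and the readthrough gene Eef1akmt4-ece2 had 0 counts in every library.

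The 7 genes with an unadjusted p under 0.05 had either a tight or a wide WT pair. The WT libraries were 1.19-fold apart for Eef2k, 1.17-fold for Eif4a3, 1.01-fold for Eif4enif1 and 1.16-fold for Eif3i. They were 2.18-fold apart for Eif4h, 4.57-fold for Eif2b5 and 5.44-fold for Eif1b. The members of this group lower in KO had 8 counts or fewer there, and none of the 7 passed adjustment over all genes. Such lower members could pass the filter on low counts through their WT libraries alone.

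Other genes of the translation pathway were examined as lists, in which 0 genes passed the adjusted threshold in either direction. The eIF2 kinases and the genes that regulate or reverse their action summed in KO to 83.1 CPM, against 465 and 483 CPM in WT. These sums rest on few counts. Against a share of 38.2% over all tested genes, KO lay below both WT libraries for 5 of the 7 tested here. It lay between them for Eif2ak2, with 49.1 CPM in KO, against 85.7 and 30.8 CPM in WT, and for Eif2ak4, with 3.78 CPM in KO, against 0 and 138 CPM in WT. All 7 tested members of the 8 had a log2 fold change below 0, against 56.9% of all tested genes. The median of the 7 was -3.52, or -2.62 with genes at 0 in KO set to their bound, beside -0.31 for all tested genes. Eif2ak1, the haem-regulated kinase, had 2 counts in KO, against 56 and 10 counts in WT (edgeR adjusted p 0.581), and no member had more than 13 counts in KO. A gene could pass the filter on low counts through its WT libraries alone, so the direction of those that passed is a description. Of 12 genes of mTORC1 and MNK signalling to the cap complex, 4 were above 0 and 8 below, with a median of -0.85. Tsc2, a brake on mTORC1, had 69 counts in KO, against 9 and 4 counts in WT (log2 fold change 3.81, SE 1.28, edgeR adjusted p 0.211). Its partner Tsc1 had 8 counts in KO, against 56 and 1 in WT. Rps6kb1, a kinase downstream of mTORC1, had 4 counts in KO, against 63 and 18 counts in WT. Larp1, which binds the pyrimidine-rich start of ribosomal protein mRNAs, had 193 CPM in KO, against 456 and 379 CPM in WT, and the eIF4E kinase Mknk2 had 280 CPM in KO, against 382 and 502 CPM in WT.

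The poly(A)-binding proteins, which link the mRNA tail to the scaffold, had a median of 0.05 over 5 tested genes. Pabpc1, the main one, had 1315 CPM in KO, against 1502 and 1539 CPM in WT. Pabpc4 had 166 CPM in KO, against 230 and 440 CPM in WT, Paip2, an inhibitor of Pabpc1, had 234 CPM in KO, against 108 and 148 CPM in WT, and the nuclear Pabpn1 had 453 CPM in KO, against 489 and 160 CPM in WT. Termination, recycling and rescue factors had a median of 0.27 over 6 tested genes. Gspt1, a release factor, had 204 CPM in KO, against 102 and 182 CPM in WT. The GTPases Gtpbp1 and Gtpbp2 had 264 and 593 CPM in KO, against 207 and 332 CPM in WT replicate 1 and 154 and 289 CPM in WT replicate 2. Other initiation and ribosome joining factors had a median of -0.46 over 5 tested genes, among them the recycling factor Abce1 with 147 CPM in KO, against 111 and 166 CPM in WT. Enzymes of hypusine and diphthamide had a median of 0.66 over 6 tested genes.

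Mitochondrial translation factors had a median of 0.01 over 7 tested genes. Tufm, the mitochondrial elongation factor that delivers tRNA, had 91 counts in KO, against 39 and 21 counts in WT (log2 fold change 2.03, SE 0.98, edgeR adjusted p 0.464). Gfm2, a mitochondrial recycling factor, had 1 count in KO, against 11 and 73 counts in WT (log2 fold change -4.89, SE 1.99, edgeR adjusted p 0.315).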

How the data were processed

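Per the labels' protocols, an RNeasy micro kit served for extraction and NEB kits for the libraries. Groups came from the sample titles. The deposited files give whole-number counts per RefSeq transcript and, beside them, deposited FPKM values. The submitters' processing notes name STAR and mm10. Versions, the tools that gave counts and FPKM and the use of strand were not found in the labels or headers. There were 42574 rows per file. The gene count was the highest count over a symbol's rows, and CPM used the total of gene counts. FPKM was summed over a symbol's rows. In single-transcript genes the total implied by FPKM, count and GENCODE M21 length had medians of 260231, 358613 and 321421 in KO, WT replicate 1 and WT replicate 2.

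The test was edgeR 4.0.16 under R 4.3.3 (filterByExpr, TMM, quasi-likelihood F-test, Benjamini-Hochberg adjustment over all tested genes, threshold 0.05). The TMM factors were 0.98, 1.00 and 1.02 and are not part of the printed CPM. With 2 WT libraries the fit has 1 residual degree of freedom, and the common biological coefficient of variation was 0.81. SE was derived as |log2 fold change| over the root of the F statistic. The size rule used CPM plus 1, 50 counts in any library and a 2-fold difference from each WT library. The floor of 3 counts per library covers counting error alone, as reads that carry no molecular identifier need not be independent. Alternatives were DESeq2 1.42.0, other scalings, filters, gene counts and FPKM, and leaving out each WT library.

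Members, complexes and lists were chosen with earlier results of these data known, and 1 marker is not reported here. Named genes were members or list genes that reached 50 counts in a library, and members at 0 in every library; the other genes named, and the motifs, were chosen after their values were seen. Coordinates are RefSeq GRCm38.p6, the assembly of mm10. Shared sequence was counted as 50-base stretches in GENCODE M21 transcripts, on either strand.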

Additional observations from a re-analysis of the deposited data

How the results depend on the processing

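No paired analysis was possible with 1 KO library, whose label also carries no replicate number. The calls rest on 1 KO library, the smallest of the 3, and genes under about 50 counts cannot be measured closely at this depth. The count of 0 factor genes past the adjusted threshold held with DESeq2 size factors, library totals, the DESeq2 test, no filter, a stricter filter and the mean count over transcripts. It was 1 (Eif2b5, adjusted p 0.042) with at least 10 counts in every library or 50 in any and library totals over all genes, a setting added after the data were seen. That setting called 131 of 3992 genes in all, against 0 with totals over the genes kept. DESeq2 called 11 genes with the filter and 0 without it, against 8 in edgeR, and the mean count over transcripts gave 1.

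Leaving out either WT library put 5 factor genes at least 2-fold higher, against 2. The number at least 2-fold lower was 7 in the main analysis and was 7 to 10 under 6 other settings, of which 1 used a 1.5-fold limit. Shares over all genes under these other settings are not given, so these counts cannot be set against a background. The median log2 fold change of the tested factor genes, -0.11, was -0.10 with DESeq2 size factors and with the DESeq2 test, -0.021 with the stricter filter, -0.15 with library totals and -0.12 with no filter. It was 0.027 without WT replicate 1 and 0.034 without WT replicate 2, taken as log2 ratios of CPM plus 1 with no refit. For these values the measure thus changed along with the libraries. The median was 0.076 with FPKM of the highest-count transcript at either pseudocount (1 or 0.1) and -0.046 with FPKM summed over transcripts. Its sign is therefore not settled.

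By complex, the log2 ratio without the most abundant member was 2.33 for alternative initiator delivery, 0.38 for eEF1 (main -0.10), -3.45 for eEF2 with its kinase (the kinase alone; main -0.37), -1.55 for eIF2B, -0.99 for the eIF4 relatives and 0.81 for eIF5A and eIF6 (main -0.69). With FPKM of the highest-count transcript, at either pseudocount, it was -0.30 for eEF2 with its kinase and 0.20 for eIF3. For start codon selection it was -0.70 on that scale and -0.87 with summed FPKM, against -0.24. Leaving out WT replicate 2 turned the ratio to 0.08 for eIF2, 0.05 for start codon selection and 0.17 for eEF1. For eIF5A and eIF6 it was 0.10 without WT replicate 1 and -1.20 without WT replicate 2. For the methyltransferases it was 0.30 without WT replicate 1 and 3.51 without WT replicate 2. Of 385 recomputed fold changes of the 35 single genes, 367 were rated as unchanged and 18 as moved. The rating allowed for the spread between the WT libraries. Genes whose WT libraries differ widely could thus shift far and still be rated unchanged. Eif1ad was rated so at 3.26 without WT replicate 1 (main 1.24). The 367 are therefore no measure of stability. None of the refitted tests changed direction. Outside the tests 14 values of 10 genes changed sign, 8 without a WT replicate and 6 with FPKM of the highest-count transcript, which gave 1.28 for Eif5 (main -0.19) and -2.76 for Eif3k (main 0.13) at a pseudocount of 1. The cause of these shifts was not tested.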
